A study of Mus musculus with 6 samples.

Results

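Plet1, Fscn1, Zbtb46, Batf3, Flt3 and Dpp4 are 6 mouse genes known from the dendritic cell lineage. They were picked by symbol from the 28822 genes of the table, with the values of the contrast described here already known. Their own differences are therefore given as a description, and passing or missing a test's threshold in this contrast is no independent support for them. The libraries were made from bone marrow-derived macrophages (BMDMs, macrophages grown from mouse marrow) cultured on Transwell inserts, whose pores let soluble factors through. Beneath them were HT22 neuronal cells, from mouse hippocampus, deprived of oxygen and glucose for 2 h. The co-cultures were given either BW723C86, an agonist of the serotonin receptor 5-HT2B (3 libraries), or its vehicle DMSO (3 libraries). The series' design text also allows BV2 microglia on the insert; the title and the sample labels name BMDMs. The sources used here give no dose, duration of treatment, mouse strain or age. Nor do they say whether replicates came from separate cultures or mice, so p-values measure the spread between these libraries, which may be technical.

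Dendritic cells take up antigen and present it to T cells. Conventional dendritic cells arise from marrow progenitors that carry FLT3, the receptor tyrosine kinase for FLT3 ligand, and they are set apart from monocytes and macrophages by the zinc finger factor ZBTB46. A cross-presenting branch, called cDC1, needs the AP-1 family factor BATF3, while the cDC2 branch relies more on IRF4. On maturation the cells make fascin, the actin-bundling protein encoded by Fscn1, and extend dendrites. DPP4, also called CD26, is a surface peptidase found on cDC1 and on T cells, and PLET1 is a surface glycoprotein held by a lipid anchor. Macrophage cultures grown from marrow can express several of these genes without being dendritic cells, so a transcript level in bulk RNA does not name a cell.

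The genes are ordered below as surface and cytoskeletal products, nuclear factors, and receptor and peptidase. The sequence just upstream of the annotated start is shown for Plet1, Fscn1 and Batf3, the 3 genes with the largest fold differences. Each run covers the 250 bases before the start in RefSeq on build GRCm38.p6, which is not a build the submitters name, and is read 5′ to 3′ on the plus strand, which is the strand of all 3 genes. They lie at chr9:50494275-50494524 (Plet1), chr5:142960105-142960354 (Fscn1) and chr1:191098164-191098413 (Batf3). Capitals mark matches to any of 5 motifs, searched on both strands. The motif of AP-1 factors was spelled TGANTCA, the cyclic AMP response element TGACGTCA and the PU.1 motif GAGGAAGT. The E-box of basic helix-loop-helix factors was spelled CACGTG. The box bound by the TATA-binding protein was spelled TATAAA. None of the matches overlapped. The motifs were chosen after these sequences were seen.
Plet1: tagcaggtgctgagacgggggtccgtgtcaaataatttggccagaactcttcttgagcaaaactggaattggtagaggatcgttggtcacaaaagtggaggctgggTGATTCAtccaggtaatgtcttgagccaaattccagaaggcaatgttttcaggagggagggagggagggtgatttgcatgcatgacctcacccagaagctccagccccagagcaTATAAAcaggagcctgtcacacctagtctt
Fscn1: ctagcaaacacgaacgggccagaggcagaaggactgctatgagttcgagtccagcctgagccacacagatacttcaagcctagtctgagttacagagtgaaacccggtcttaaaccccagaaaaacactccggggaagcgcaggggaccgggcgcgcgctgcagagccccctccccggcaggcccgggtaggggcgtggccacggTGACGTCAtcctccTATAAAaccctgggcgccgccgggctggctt
Batf3: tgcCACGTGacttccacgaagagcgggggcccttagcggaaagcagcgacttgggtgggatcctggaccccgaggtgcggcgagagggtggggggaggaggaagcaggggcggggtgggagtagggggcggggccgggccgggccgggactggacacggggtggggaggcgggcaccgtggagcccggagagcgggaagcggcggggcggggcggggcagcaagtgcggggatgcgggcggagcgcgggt

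TATAAA began 30 bases before the start of Plet1 and 31 bases before that of Fscn1, and 12.3% of 32536 upstream windows of this length held it somewhere. The AP-1 letters of Plet1 began 144 bases before the start (6.73% of windows hold them). In Fscn1 the letters of the cyclic AMP response element began 45 bases before the start (1.56% of windows). Batf3 had none of these, and its match was an E-box 247 bases before the start (6.04% of windows). Its window had a GC content of 76%, against 62.4% for Fscn1, 50% for Plet1 and a median of 52.4% over all windows. The PU.1 letters, which 2.45% of windows hold, had no match in the 3. A match is a string of letters and not a shown binding site, and the start used by these cells was not measured.

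Library totals ran from 58841307 to 75931615 estimated counts. Expression is given as CPM, that is, each count relative to its library's total, adjusted between libraries by edgeR's TMM factors. A count of 3, used as the floor of detection, is 0.0386 to 0.0523 CPM, for counting error only. Low values in the table pile up at multiples of 4, so that a single sequenced fragment may be worth several counts. Macrophage genes were abundant in every library: Lyz2, a lysozyme gene, stood at 32877 ± 432 CPM with DMSO and 29407 ± 620 CPM with BW723C86 (SD, n = 3 per group), and Csf1r, the M-CSF receptor gene, at 738 ± 2.45 and 1063 ± 43.1 CPM. Of all 15567 genes tested with edgeR's quasi-likelihood test (adjusted p under 0.05), 42% differed between the groups. BW723C86 replicate 2 lay farthest from its group by the chi-square of counts divided by 4 (8.84 and 6.06 per degree of freedom, beside 2.45 to 2.76 for the other pairs within a group). By log2 CPM it was replicate 1 that stood apart. On the second principal component, an axis of spread among libraries holding 12.3% of the variance, it lay at 42.5, beside -11.6 and -31.4 for BW723C86 replicates 2 and 3.

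All 6 genes had a higher mean with BW723C86, and the 6 passed the filter on low counts. The groups did not overlap for any of the 6, and the same held, with BW723C86 above, for 26.3% of all tested genes. Plet1, Fscn1, Batf3 and Zbtb46 were past edgeR's threshold, against a background of 21.3% of tested genes higher with BW723C86. Flt3 and Dpp4 were not past it. Since the genes were picked on this contrast, these counts describe the choice. Without BW723C86 replicate 2 the log2 fold changes were 2.32 (Plet1), 1.52 (Fscn1), 1.58 (Batf3), 1.03 (Zbtb46), 0.77 (Flt3) and 0.38 (Dpp4). With all libraries the median log2 fold change of the 6 was 1.28, beside 0.0042 over all tested genes. In bulk RNA a change in the number of cells that express a gene and a change in RNA per cell cannot be told apart, and this holds for every value below.

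**Figure D1:**
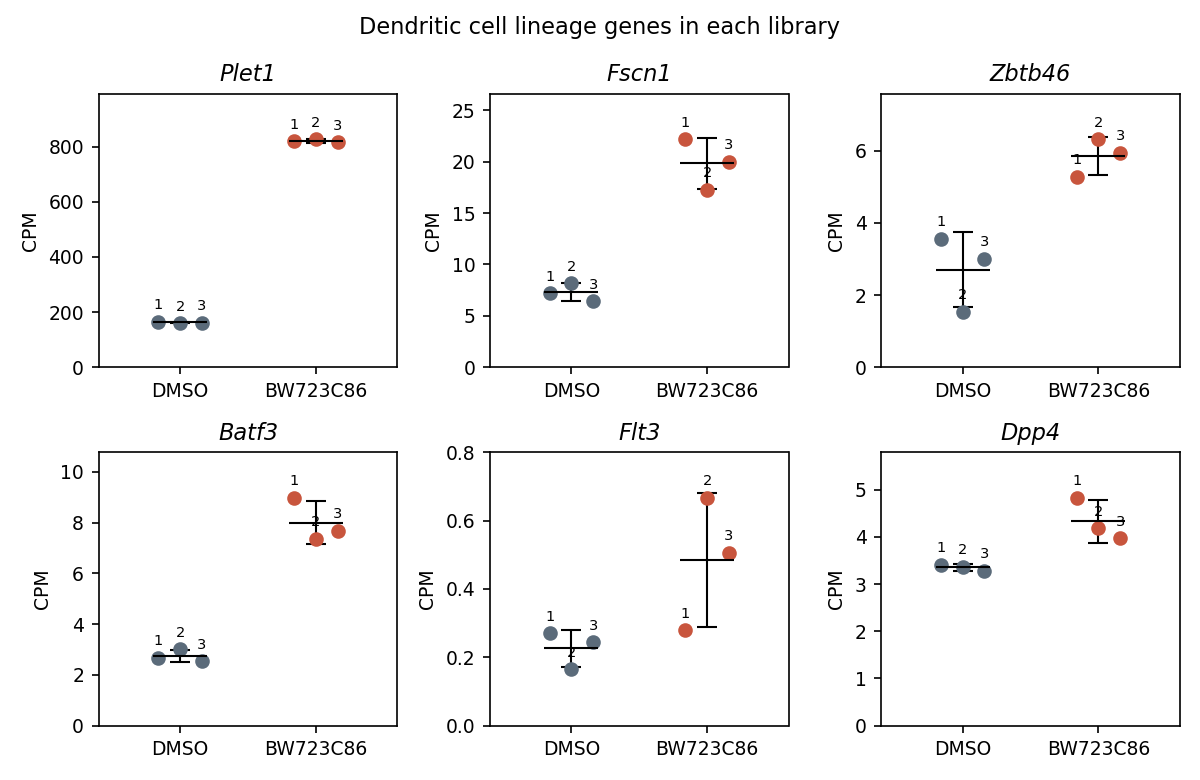
Expression (CPM, linear axes from 0) of the 6 genes in each library, with DMSO in grey and BW723C86 in red, the replicate number beside each point, and bars for the mean and SD of 3 libraries. The BW723C86 points lie above the DMSO points in each panel, by the least for Flt3 (0.279 against 0.270 CPM at the nearest) and by the most for Plet1.

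Plet1 (ENSMUSG00000032068) was by far the most abundant of the 6. Its level was 165, 160 and 162 CPM in DMSO replicates 1 to 3 and 821, 827 and 815 CPM in BW723C86 replicates 1 to 3. Libraries of a group lay close together (coefficients of variation of 1.63% and 0.74%), and every BW723C86 library stood about 5 times above every DMSO library. The ratio of the means was 5.06 and the log2 fold change 2.34 (SE 0.04). By size its log2 fold change lay at the 97.8th percentile of all tested genes. An antisense gene, Plet1os, shares 261 exonic bases with Plet1 in GENCODE M21. Its own counts were 141 to 292 per library beside 9652 to 59522 for Plet1. The sources used here do not say that strand was used in counting, so reads in the shared stretch may be counted for either gene.

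Fscn1 (ENSMUSG00000029581), the fascin gene, was expressed at 7.22, 8.17 and 6.43 CPM with DMSO. With BW723C86 it reached 22.2, 17.3 and 20.0 CPM. The lowest treated library was thus above the highest vehicle library by more than the range within either group. The means were 7.27 ± 0.876 and 19.8 ± 2.46 CPM (SD, n = 3), a log2 fold change of 1.45 (SE 0.12). No annotated gene shares its exons.

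Among the nuclear factors, Batf3 (ENSMUSG00000026630) stood at 2.68, 3.02 and 2.54 CPM with DMSO and at 8.98, 7.35 and 7.67 CPM with BW723C86. These rest on 182 to 208 counts in the vehicle libraries and 454 to 529 in the treated ones. The groups were well apart, with a log2 fold change of 1.54 (SE 0.14). BW723C86 replicate 1 was the highest library for Batf3 as it was for Fscn1.

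Zbtb46 (ENSMUSG00000027583) was measured at 3.56, 1.54 and 3.01 CPM with DMSO, from 277, 93 and 234 counts. In the BW723C86 libraries it was at 5.28, 6.33 and 5.95 CPM. The vehicle libraries were uneven: replicate 2 had 1.54 CPM where the others had 3 or more, giving a coefficient of variation of 38.6%, against 9.0% among treated libraries. The log2 fold change was 1.11 (SE 0.24), and 0.83 (SE 0.16) without DMSO replicate 2. ZBTB46 is also known from endothelium. Of 9 endothelial genes listed, 6 were tested, of which 3 rose and 2 fell. Cdh5, the VE-cadherin gene, rose from 4.31 ± 0.718 to 11.1 ± 1.8 CPM (edgeR log2 fold change 1.37, adjusted p = 8.3e-06). Pecam1 fell from 17.4 ± 1.08 to 3.46 ± 0.566 CPM (-2.33, edgeR adjusted p = 8.8e-09). Erg, an endothelial ETS factor, fell from 1.68 ± 0.123 to 0.137 ± 0.031 CPM. Tek, the angiopoietin receptor gene, had no count in any library. The summed endothelial genes ranged from 182 to 184 CPM with DMSO and from 252 to 258 CPM with BW723C86. Without Vwf, the von Willebrand factor gene and the most abundant of them, the ranges were 90.5 to 94.5 and 93.8 to 103 CPM. Their part in the Zbtb46 values was not tested.

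Flt3 (ENSMUSG00000042817) was near the limit of detection. Its counts were 21, 10 and 19 with DMSO and 16, 48 and 30 with BW723C86, or 0.270, 0.166 and 0.244 against 0.279, 0.667 and 0.507 CPM. BW723C86 replicate 1 was within 0.01 CPM of DMSO replicate 1, so that the groups are barely separate. Divided by 4, the counts of a library come to between 2.5 and 12. The log2 fold change of 1.09 had an SE of 0.51, and leaving out a single library moved it between 0.77 (without BW723C86 replicate 2) and 1.36 (without BW723C86 replicate 1).

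Dpp4 (ENSMUSG00000035000) showed the smallest difference, with 3.41, 3.37 and 3.28 CPM in the vehicle libraries and 4.83, 4.18 and 3.97 CPM in the treated ones. The vehicle libraries lay close together (coefficient of variation 2.02%) and the treated ones spread more widely (10.4%). Its ratio of means was 1.29 and its log2 fold change 0.37 (SE 0.15), at the 60.8th percentile of all tested genes by size. An antisense gene, Gm13561, shares 232 exonic bases with Dpp4 but had at most 4 counts in any library. T cells are another source of DPP4. Of the CD3 chain genes, Cd3g had counts of 19, 31 and 18 with DMSO and 13, 6 and 4 with BW723C86 and did not pass (edgeR log2 fold change -1.38, adjusted p = 0.12). Cd3d had counts of 0, 3 and 0 with DMSO and 0, 8 and 5 with BW723C86, Cd3e had 0, 4 and 0 with DMSO and none with BW723C86, and the receptor chain gene Trac had none in any library. The part of T cells in the Dpp4 values was not tested.

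The treated libraries did not rank alike across the 6 genes. BW723C86 replicate 1 was the highest of the 3 for Fscn1, Batf3 and Dpp4 and the lowest for Zbtb46 and Flt3. Replicate 2 was the highest for Zbtb46, Flt3 and Plet1.

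Levels of different genes can be compared only per length, here as CPM divided by the kilobases of exon in GENCODE M21. That length merges all annotated exons of a gene and can exceed the transcripts these cells make. Ratios between genes, here and below, are therefore approximate. With DMSO the order was Plet1 (83.3 ± 1.36 CPM per kb), Fscn1 (2.41 ± 0.291), Batf3 (1.72 ± 0.153), Dpp4 (0.53 ± 0.0107), Zbtb46 (0.318 ± 0.123) and Flt3 (0.0367 ± 0.0088). No neighbours in that order overlapped over the 3 libraries. Plet1 was 34.5 times above Fscn1, the next gene. With BW723C86 the order kept Plet1 (422 ± 3.12), Fscn1 (6.59 ± 0.816) and Batf3 (5.01 ± 0.541) in front, and Flt3 (0.0784 ± 0.0316) last. Zbtb46 (0.688 ± 0.0619) and Dpp4 (0.685 ± 0.071) then overlapped and did not differ beyond their spread.

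**Figure D2:**
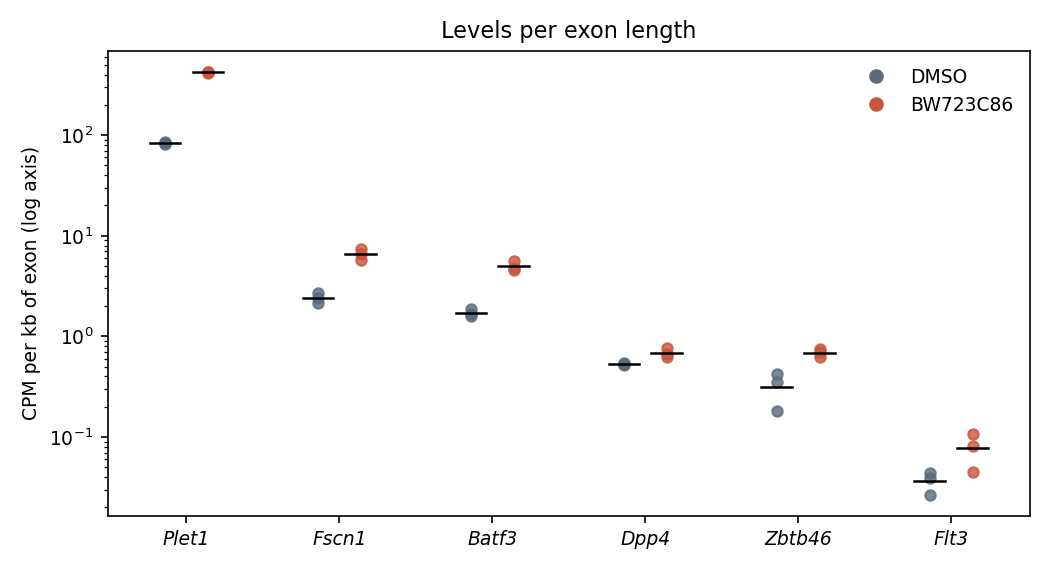
Level per kilobase of exon (CPM per kb, log axis) of the 6 genes, with DMSO libraries in grey, BW723C86 libraries in red and a line at each mean. Plet1 lies at 83.3 and 422 CPM per kb, above all others, while Zbtb46 and Dpp4 overlap with BW723C86 at 0.688 and 0.685.

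A list of 28 relatives and partners of these genes was drawn up, of which 23 could be tested. Of the 23, 6 rose and 3 fell, or 39.1% changed, beside 42% of all tested genes. Irf4, Irf8, Kit, Csf1r, Csf2ra and Flt3l, also given here as relatives or partners, are outside that count. They belong to the dendritic cell lists below, and all but Kit passed the threshold. BATF3 has as close relatives BATF and BATF2. Batf was at 20.0 ± 1.37 CPM with DMSO and 19.0 ± 1.11 CPM with BW723C86 and did not pass (edgeR log2 fold change -0.07, adjusted p = 0.5), and Batf2, at 3.41 ± 1.46 and 4.42 ± 0.913 CPM, missed the threshold too (adjusted p = 0.28). Per kilobase, Batf was 8.26 times as abundant as Batf3 with DMSO and 2.7 times with BW723C86. BATF factors bind DNA with JUN proteins and with IRF4 or IRF8. Jun rose from 59.5 ± 3.17 to 104 ± 1.66 CPM (log2 fold change 0.80, edgeR adjusted p = 5.2e-08) and Irf4 from 92.8 ± 1.78 to 131 ± 6.74 CPM (0.49, adjusted p = 3.8e-06). Irf8, by contrast, fell from 166 ± 3.76 to 147 ± 6.81 CPM (-0.17, adjusted p = 0.0098), and Junb was at 136 ± 3.85 and 143 ± 19 CPM (adjusted p = 0.49).

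Other actin bundlers went different ways beside Fscn1. Lcp1, encoding L-plastin, the main bundler of white blood cells, fell from 1671 ± 18.8 to 1210 ± 74.1 CPM (edgeR log2 fold change -0.47, adjusted p = 7.4e-06). The espin gene Espn rose from 3.05 ± 0.155 to 6.89 ± 1.34 CPM (1.18, adjusted p = 5.5e-05). Fscn2, the retinal fascin, had at most 9 counts in a library and was not tested. Per kilobase, Lcp1 was 72.8 times as abundant as Fscn1 with DMSO and 19.3 times with BW723C86.

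Of the peptidases related to DPP4, Dpp7, which acts in vesicles, rose from 108 ± 2.9 to 214 ± 15.1 CPM (edgeR log2 fold change 0.99, adjusted p = 1.3e-08). The cytosolic Dpp9 rose from 71.8 ± 2.09 to 83.6 ± 1.55 CPM (0.22, adjusted p = 0.0022), and Dpp8, at 81.6 ± 2.18 and 87.1 ± 11.1 CPM, did not pass (adjusted p = 0.35). The gene of adenosine deaminase, Ada, whose human product binds DPP4, was at 1.8 ± 0.353 and 1.64 ± 0.458 CPM (adjusted p = 0.7). Per kilobase, Dpp7 was 61 times as abundant as Dpp4 with DMSO and 93.7 times with BW723C86.

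FLT3 belongs to the receptor kinases that also include KIT and the M-CSF receptor. Kit stood at 46.4 ± 2.02 with DMSO and 44.9 ± 1.47 CPM with BW723C86 (not past; edgeR adjusted p = 0.54). Csf1r rose by a log2 fold change of 0.53 (adjusted p = 8.1e-07), and Csf2ra, the alpha chain of the GM-CSF receptor, rose from 308 ± 5.37 to 533 ± 12.3 CPM (0.79, adjusted p = 9.1e-09). Flt3l, encoding the ligand of FLT3, fell from 7.82 ± 0.272 to 5.82 ± 0.695 CPM (-0.43, adjusted p = 0.013). Per kilobase, Kit was 142 times as abundant as Flt3 with DMSO and 64.3 times with BW723C86.

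**Figure D3:**
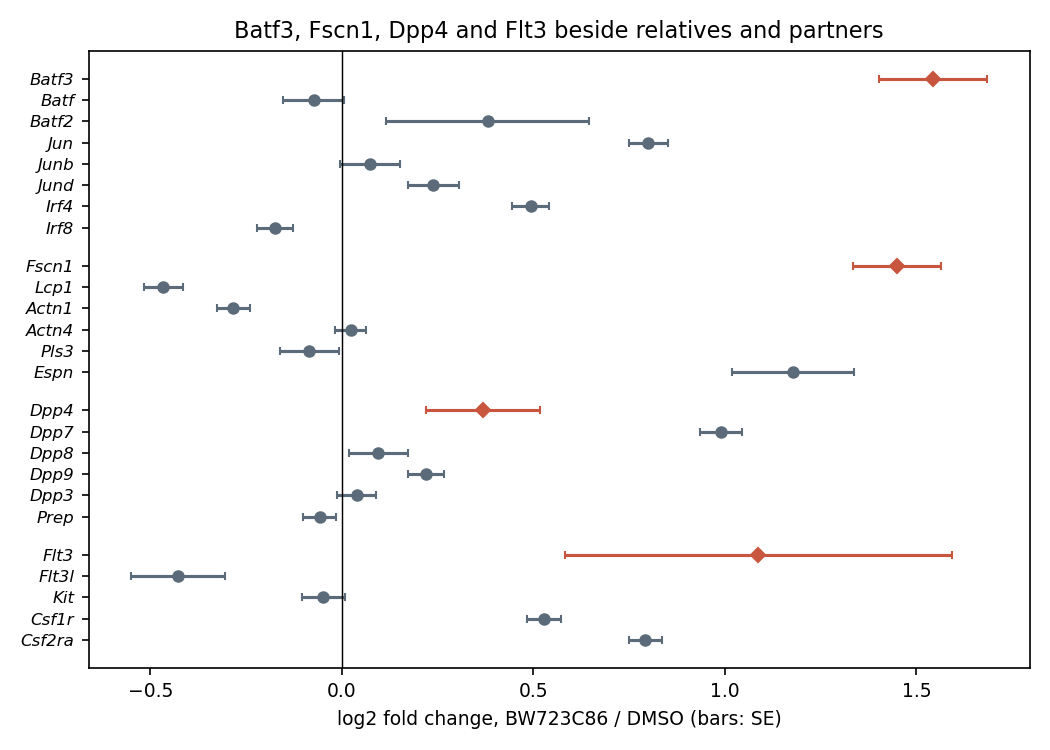
Log2 fold change (BW723C86 over DMSO, bars show SE) of Batf3, Fscn1, Dpp4 and Flt3 as red diamonds, with relatives and partners of each as grey circles below it. Batf3 and Fscn1 lie to the right of every relative or partner drawn with them, at 1.54 and 1.45, whereas Dpp7 (0.99) lies to the right of Dpp4 (0.37).

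Apart from the 6, 109 other genes known from dendritic cells or their development were listed in 6 groups. They include Irf4, Irf8, Kit, Csf1r, Csf2ra and Flt3l, given above, and Csf1r is also among the macrophage genes below. Of the 109, 99 were tested. Of these, 37 rose and 34 fell, or 37.4% and 34.3%, beside 21.3% and 20.7% of all tested genes. With library totals in place of TMM factors, 37 rose and 38 fell, beside 2581 higher and 4124 lower of all tested genes (3319 and 3215 with TMM). Of the 99, 76 had at least 5 CPM in 3 libraries. Among these, 28 rose and 28 fell, 73.7% in all, beside 52.9% of all tested genes at that level. The median log2 fold change of the 99 was 0.03. At least 2-fold changes were seen for 21 of the higher genes and 8 of the lower ones, and for 13 and 5 among the 76. No 2-fold share was taken over all tested genes, and the lists were drawn up with these data known. These counts therefore only describe the lists. Without BW723C86 replicate 2, 74 of the listed genes changed, 40 higher and 34 lower.

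Genes shared by conventional dendritic cells gave 8 higher, 6 lower and 8 not past of 22 (median log2 fold change 0.03). Of the 8 higher genes 7 rose at least 2-fold, and of the 6 lower ones 0 fell that far, again with no such share over all tested genes to set beside it. Anpep, encoding the aminopeptidase CD13, rose from 350 ± 6.39 to 1000 ± 28.2 CPM, while Ccr7, the receptor that guides dendritic cells to lymph nodes, was at 28.0 ± 1.34 and 26.6 ± 1.44 CPM (edgeR adjusted p = 0.42).

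The cDC1 list, the branch that BATF3 is known for, gave 6 higher, 4 lower and 4 not past of 14 tested. Clec9a, a receptor for dead-cell actin and a defining marker of that branch, rose from 3.35 ± 0.492 to 8.72 ± 0.903 CPM (edgeR log2 fold change 1.38, adjusted p = 5.9e-06). Its counts were 304, 191 and 232 with DMSO and 553, 564 and 514 with BW723C86. Tlr11, encoding a Toll-like receptor for profilin, rose from 0.133 ± 0.0196 to 1.96 ± 0.261 CPM (3.85, adjusted p = 6.6e-07), with 12, 7 and 10 counts in the vehicle libraries, so that the size of its fold is uncertain. The endosomal GTPase gene Rab7b rose from 33.7 ± 1.27 to 65.4 ± 1.55 CPM. The 4 lower genes were Irf8, given above, and Itgae, Ifi205 and Wdfy4. Itgae, encoding the integrin chain CD103 found on cDC1, fell from 9.52 ± 0.707 to 5.07 ± 0.663 CPM (-0.91, edgeR adjusted p = 7.5e-05), Ifi205 from 4.45 ± 0.335 to 1.6 ± 0.399 CPM (-1.47, adjusted p = 7e-05), and Wdfy4, needed for cross-presentation, from 176 ± 6.03 to 145 ± 2.84 CPM (-0.29, adjusted p = 0.0002). Xcr1, the chemokine receptor that defines cDC1, was close to absent, with counts of 2, 4 and 0 with DMSO and 2, 6 and 1 with BW723C86. Cd8a had no count in 5 of 6 libraries. Id2, an inhibitor of E proteins needed for cDC1, was at 193 ± 10.1 and 195 ± 6.72 CPM (adjusted p = 0.84).

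All 12 tested genes of the cDC2 list changed, 8 higher and 4 lower (median log2 fold change 0.38). Mgl2, a C-type lectin gene known as CD301b whose close copy Clec10a may share reads with it, rose from 170 ± 3.55 to 848 ± 42.5 CPM (2.32, edgeR adjusted p = 1.6e-12). The transcription factor gene Klf4 rose from 84.1 ± 2.88 to 119 ± 0.938 CPM. Il1r2, encoding the decoy receptor of interleukin-1, fell from 56.4 ± 1.77 to 17.6 ± 1.14 CPM.

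Of 22 genes of mature or migratory dendritic cells, the state in which Fscn1 is known to be high, 6 rose, 7 fell and 9 did not pass (median 0.08). Tnfrsf9, encoding the co-stimulator 4-1BB, fell from 52.7 ± 2.4 to 14.6 ± 2.08 CPM and Marcksl1, a gene of an actin-regulating protein, from 54.8 ± 2.84 to 17.6 ± 0.777 CPM. Pdcd1lg2, encoding the checkpoint ligand PD-L2, rose from 28.2 ± 1.05 to 51.4 ± 1.34 CPM (edgeR log2 fold change 0.87, adjusted p = 7e-08). Relb, the NF-kB subunit of mature dendritic cells, was at 21 ± 0.0733 and 19.9 ± 2.93 CPM (adjusted p = 0.55).

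Plasmacytoid dendritic cell genes gave 4 higher, 2 lower and 4 not past of 10. The adaptor gene Blnk, also expressed by B cells and macrophages, rose from 8.35 ± 0.215 to 21.6 ± 0.903 CPM. Siglech, a defining marker, had no count with DMSO and counts of 9, 9 and 14 with BW723C86, and was too low to test. Tcf4, the factor that sets this lineage, fell from 19.4 ± 1.52 to 15.8 ± 2.3 CPM with overlapping groups (edgeR log2 fold change -0.30, adjusted p = 0.036).

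Genes of dendritic cell progenitors and development gave 11 lower, 5 higher and 3 not past of 19 (median -0.28, beside 0.0042 over all tested genes). Sox4 fell from 23.5 ± 1.77 to 10.4 ± 1.25 CPM. The 5 higher ones included Cbfa2t3, encoding the corepressor ETO2, which rose from 14.2 ± 1.42 to 39.7 ± 1.1 CPM (edgeR log2 fold change 1.49, adjusted p = 6.8e-09), and Cebpa, a factor of myeloid progenitors, which rose from 179 ± 9.1 to 440 ± 31.9 CPM.

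**Figure D4:**
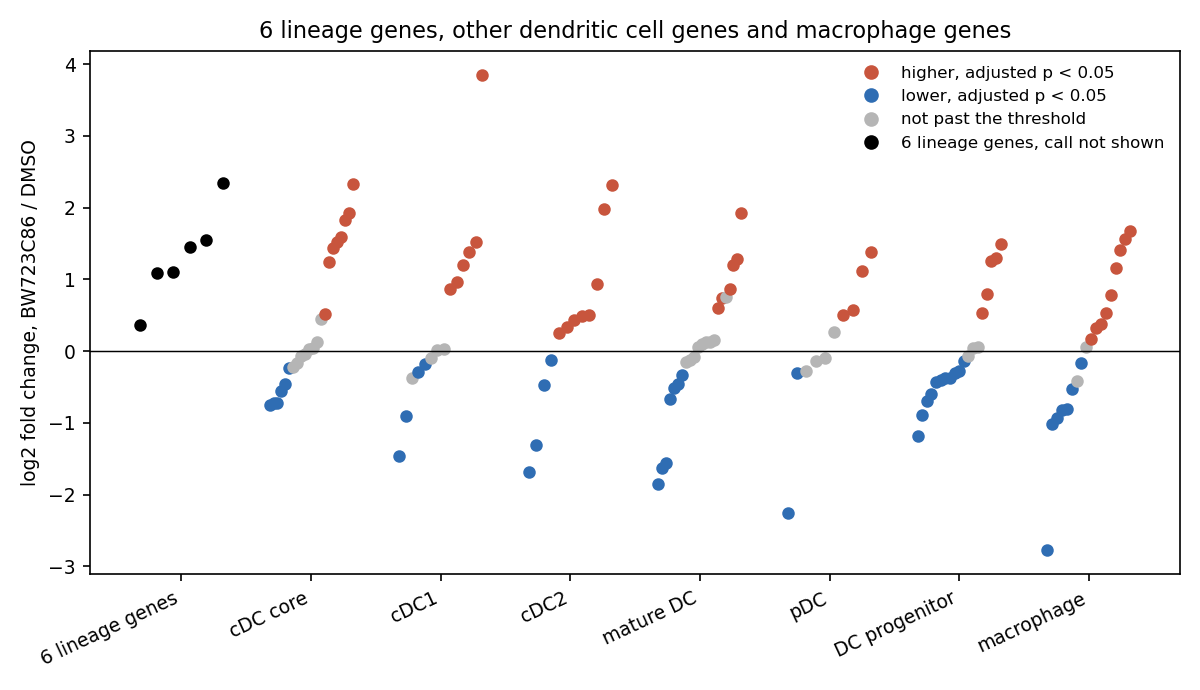
Log2 fold change (BW723C86 over DMSO) of the 6 lineage genes in black and of each tested gene in the 6 dendritic cell lists and the macrophage list, sorted within a column, with red for higher, blue for lower and grey for not past edgeR's adjusted p of 0.05. The 6 genes lie between 0.37 and 2.34, whereas the 99 other dendritic cell genes spread on both sides of 0.

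Genes of other cells were read beside these. Of 18 macrophage genes tested, 9 rose and 7 fell, and their sum ranged from 37360 to 38165 CPM with DMSO and from 34601 to 35490 CPM with BW723C86. Lyz2 made up 87.3% and 83.9% of that sum, and without it the order turned, with 4777 to 4795 CPM with DMSO and 5385 to 5902 CPM with BW723C86. Inflammatory monocyte genes fell for 9 of 10, their sum going from 6033 to 6113 CPM with DMSO to 1486 to 1610 CPM with BW723C86. Chil3, which is also on the alveolar macrophage list below, made up 52.8% and 72.0% of that sum. Without Chil3 the ranges were 2851 to 2885 CPM with DMSO and 420 to 442 CPM with BW723C86. All 9 tested neutrophil genes fell, and so did 4 of 5 mast cell genes and 3 of 5 lymphocyte genes; these 3 lists summed to 2603 to 2679, 112 to 118 and 4.07 to 6.75 CPM with DMSO and to 709 to 814, 30.1 to 31.0 and 2.08 to 3.04 CPM with BW723C86. The neutrophil sum was mostly Mmp8, a collagenase gene (91.2% with DMSO), and without it went from 228 to 239 CPM down to 35.3 to 39.2 CPM. Neuronal genes, listed for the HT22 cells of the lower chamber, summed to at most 0.668 CPM with DMSO and 0.924 CPM with BW723C86, with Map2, Nefl and Dcx at 0 throughout. Alveolar macrophage genes, listed because PLET1 has also been seen outside dendritic cells, gave 4 higher and 5 lower of 10 tested. The part of any of these cells in the values of the 6 genes was not tested.

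The genes whose centred log2 CPM over the 6 libraries lay nearest to each of the 6, by Euclidean distance among 10021 named genes with a mean of at least 5 CPM, are given as a description. All 6 libraries and the treatment contrast are shared, so a like fold brings genes near. Nearest to Plet1 were Itgax, the CD11c integrin gene (distance 0.092), Mgl2 (0.113) and the cathepsin gene Ctsk (0.14). Those for Fscn1 were Pdzk1ip1, C1qc and Osbpl5 (0.237 to 0.254), and for Batf3 the complement gene C1qa, Gprc5c and the syndecan gene Sdc3 (0.201 to 0.231). Zbtb46 and Flt3 had no neighbour nearer than 0.535 (AC157784.1) and 0.572 (Psd3). Their own means, 4.28 and 0.356 CPM, were under the level asked of neighbours, but so was that of Dpp4 (3.84 CPM). The SDs of Zbtb46 and Flt3 within groups were 0.46 and 0.48 log2 CPM, beside 0.11 for Dpp4, and such scatter enters the distance. Dpp4 lay near Twnk, the mitochondrial helicase gene, Rbm19 and Pank4 (0.0675 to 0.0815). C1qa and C1qc are macrophage genes, and both rose, with log2 fold changes of 1.57 and 1.41. Other macrophage genes went the other way: of the 18 tested, 9 rose and 7 fell, and Maf was among those that fell (-1.02).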

How the data were processed

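RNA-seq libraries of 6 samples were compared by the treatment label, 3 against 3. The authors deposited estimated counts of each gene in 1 column per sample, written as whole numbers, so rounding changed none. The submitters' processing notes list edgeR, StringTie, HISAT2 and fastp as tools, with GRCh38 and GRCm39 as builds; the sources used here give no versions, settings or use of strand. Of 28822 genes, 4300 had no count in any sample. In these counts the value 4 occurs 4613 times, 3 occurs 2904 times and 5 occurs 2552 times. Symbols (27005 genes) and exon lengths came from GENCODE release M21, on another build.

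Genes were tested in edgeR 4.0.16 under R 4.3.3 by the robust quasi-likelihood F test with TMM factors and the default filter by group (15567 genes), two-sided, with Benjamini-Hochberg adjustment over all tested genes and a threshold of 0.05. SE is the log2 fold change divided by the root of F. The procedure was checked on simulated data. With counts divided by 4, replicates of a group still differed beyond sampling noise (chi-square over its degrees of freedom, 2.45 to 8.84 for the 6 pairs), so none was merged. Alternatives were RLE scaling, library totals, DESeq2 1.42.0, no low-count filter, at least 5 CPM in 3 libraries, counts divided by 4, the replicate block, and leaving out each library.

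The 6 genes and 15 gene lists were chosen with earlier results of these data known. Genes named were the 6, up to 4 called genes of smallest p per list, a fixed panel of related genes, and 3 nearest profiles per gene (log2 CPM, prior count 2); Cd8a, Cd3d, Cd3e, Cd3g, Trac, Itgae, Ifi205, Wdfy4, Tek, Map2, Nefl, Dcx, Lyz2 and the genes in the plot of relatives outside that rule were chosen after their values were seen. The values of another listed gene are not reported here.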

Additional observations from a re-analysis of the deposited data

How the results depend on the processing

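Over 13 alternatives, 5387 to 7153 genes changed, against 6534, and 57 to 75 of the other dendritic cell genes, against 71; neither count left a range of 1.5 times. The split of all changed genes moved with library totals only, to 2581 higher and 4124 lower, against 3319 and 3215. Each of the 6 log2 fold changes kept its sign. For Plet1 (2.34) the value moved by more than the spread between replicates in 2 settings, to 2.27 with library totals only and to 2.32 without BW723C86 replicate 2. Leaving out 1 library gave 2.32 to 2.35 for Plet1. The other ranges on leaving out 1 library were 1.36 to 1.54 for Fscn1, 1.45 to 1.61 for Batf3, 0.83 to 1.35 for Zbtb46, 0.77 to 1.36 for Flt3 and 0.28 to 0.42 for Dpp4. Flt3 could not be fitted with counts divided by 4 or at least 5 CPM, nor Dpp4 with the latter, since they then fall under the filter. Deviations of same-numbered libraries from their group means were hardly correlated (0.031, -0.025 and -0.0048), and those of the other pairs ran from -0.031 to 0.038. Values this near 0 cannot exclude a shared culture or day, so whether the numbers pair the samples stays unknown. With the replicate block, 6179 genes and 69 of the other dendritic cell genes changed, and the log2 fold changes were 2.34 (Plet1), 1.45 (Fscn1), 1.54 (Batf3), 1.17 (Zbtb46), 1.03 (Flt3) and 0.36 (Dpp4). Genes with few counts, such as Flt3 (10 to 48 per library), are limited by depth.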
